A study of Mus musculus with 66 samples.

Results

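Whole mouse testes at days 30 and 35 after birth were compared with whole testes at days 18 and 20. The samples were taken by the day in their titles. They were run on 24 of the 66 arrays of a developmental time course of 11 days, from day 0 to day 56, and each of its 3 array types (A, B and C) held 8 of its 22 arrays here. On each type, 4 arrays came from the later days and 4 from the earlier days, as 2 numbered samples per day. All mice were labelled BL/6-129, with no treatment and no other genotype named, and total testis RNA had been prepared with TRIzol. Nothing in the labels tells if a day's 2 samples came from different animals or from pooled tissue, so the spread between them may be technical. The p-values and standard errors rest on this spread pooled over all 11 days and 22 arrays of a type, not on the compared arrays alone.

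The days fall on either side of the point at which the first germ cells of the mouse complete meiosis. Around the earlier days the most advanced germ cells of the first wave are late pachytene spermatocytes and the first haploid cells. Round spermatids then build the acrosome, a cap of enzymes over the nucleus. Elongating spermatids form the flagellum, shape the head with a sleeve of microtubules called the manchette, and exchange histones for transition proteins and then for protamines, the small basic proteins that pack sperm DNA. Whole tissue was measured with a common mean signal for all arrays, so each value is a share of the RNA of the organ. Fewer cells of a type and less RNA per cell cannot be told apart in such data.

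Signals are intensities on a linear scale, and changes are differences of log2(signal + 16) between the mean of the later and the mean of the earlier days, given ± SE. The added constant of 16 understates the changes of dim genes. A gene was represented by its brightest probe set with a signal of at least 50 on 2 or more of the 22 arrays of its type, and 13472 genes were tested. To be called, a gene needed a Benjamini-Hochberg adjusted p below 0.05 in limma's test and a 2-fold or larger change on that scale. Wherever 4 signals are listed, the samples stand in the order day 30 number 1, day 30 number 2, day 35 number 1 and day 35 number 2, and likewise for days 18 and 20.

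The later arrays were the more uniform. Between 46 and 56.5% of the probe sets reached a signal of 50 on arrays of days 30 and 35, and between 47.5 and 60% on arrays of days 18 and 20. Across probe sets, the correlation between arrays of days 30 and 35 lay between 0.925 and 0.976, and that between arrays of days 18 and 20 between 0.786 and 0.973. On type A, day 18 number 1 correlated at 0.945 with a day 14 array, and day 20 number 1 at 0.869 and 0.886 with the day 18 arrays. On types B and C the arrays numbered 2 took these places. A sample number may therefore not mark the same RNA on the 3 types, and leaving out a numbered sample may leave out arrays of both samples of its day. The numbers were kept as labelled. Where an array is left out, its day keeps 1 array per type, which is assumed to vary like the other days. The tissue label was checked on marker genes. Clu of Sertoli cells, Hspa2 of spermatocytes and Cyp17a1 of Leydig cells were at a signal of 61.2 or more in each of the 8 samples. The lowest was a Cyp17a1 signal. It lies within the range of array medians, 42.5 to 64.5 at days 30 and 35 and 44 to 73.5 at days 18 and 20. Other markers were dimmer, such as Amh of Sertoli cells at 12.6 to 20.8, so this check on chosen genes is a weak one.

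The rises at the later days were larger than the falls. At days 30 and 35, 922 genes were called higher and 535 lower, which is 6.84% and 3.97% of the 13472 genes tested, or 10.8% together. The median change was 1.89 among the genes called higher and -1.19 among those called lower. A change of 4 or more on the log2 scale, at least 16-fold, was found in 157 of the genes called higher, and a change of -2 or less in 8 of those called lower. The median of all genes was -0.16, and it was -0.08 when arrays were scaled to their median, a scaling that called 1021 genes higher and 404 lower. All 4 later samples lay above all 4 earlier samples in 891 of the 922 genes, and below them in 456 of the 535. Among all genes tested, called or not, they lay above in 1533 (11.4%) and below in 2368 (17.6%). The count of genes called lower was the less settled. It was 324 without the day 18 array of each type named above, 321 without both of these arrays, 962 without day 20 and 181 with a constant of 64 in place of 16, while the count of rises was 811, 777, 973 and 717.

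**Figure D1:**
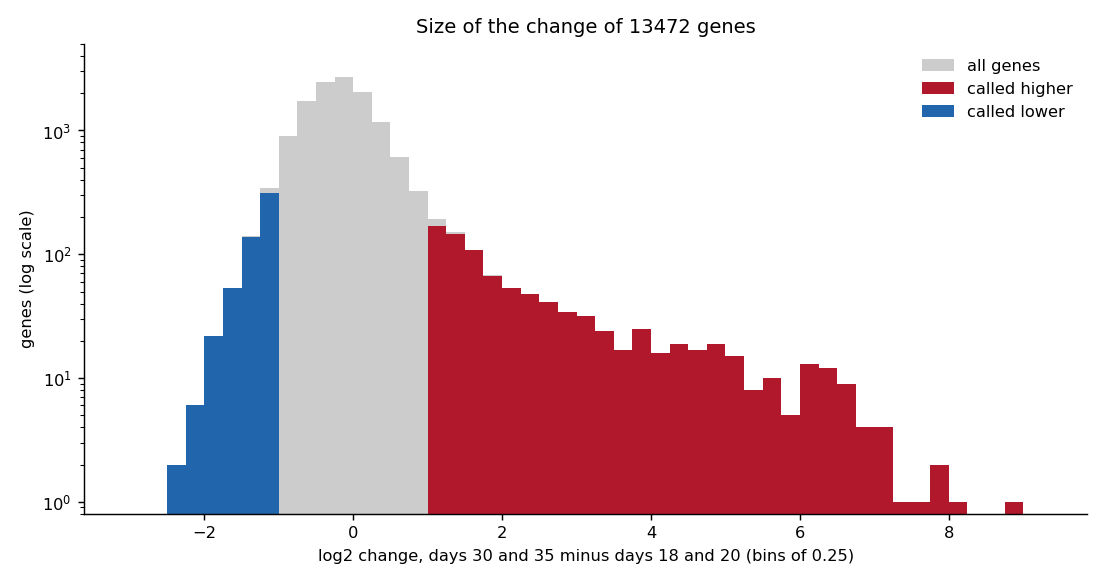
Number of genes (log axis) by log2 change, days 30 and 35 minus days 18 and 20, in bins of 0.25, for all 13472 genes tested (grey), the 922 called higher (red) and the 535 called lower (blue). The right side reaches 8.96 and the left side -2.33.

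The genes called higher took up a large part of the signal. On type A, they made up 17.6 to 20.3% of the summed signal of the tested genes at days 30 and 35, against 3.1 to 5.6% at days 18 and 20. The ranges were 20.3 to 22.9% against 3.6 to 5.7% on type B, and 25.8 to 29.4% against 3.6 to 5.2% on type C. The groups did not overlap on any type. The genes were chosen by this change, so these shares are a description. Of the 922 genes, 271 were below a signal of 50 in all 4 earlier samples and 411 were at 50 or more in all 4 of them. The median of the means was 560.3 at days 30 and 35, against 73 at days 18 and 20. For the genes called lower it was 86.5 at days 30 and 35, against 234.7 at days 18 and 20.

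The genes of nuclear condensation held the largest change of all. Prm1, which encodes a protamine, had signals of 10500, 12622, 12017 and 12428 at days 30 and 35, against 8.2, 5.1, 11.5 and 6.8 at days 18 and 20 (8.96 ± 0.85, adjusted p = 2.45e-07). Its 4 earlier samples were all at 11.5 or less. A second, dimmer probe set of Prm1 changed by -0.92 and was not called. Tnp2, a transition protein, had signals of 8574, 10239, 9765 and 11598 at days 30 and 35, against 27.3, 25.2, 26.4 and 21.2 at days 18 and 20 (7.93 ± 0.35, adjusted p = 5.26e-12). Tnp1, the other transition protein, was at 3726, 4019, 4457 and 4632, against 118.2, 191.3, 139.9 and 181.7 at days 18 and 20 (4.62 ± 0.22, adjusted p = 1.34e-11). The groups of both genes lay apart. Prm2, the second protamine of the mouse, was dim on its only probe set, with 14.4, 49.9, 63.6 and 50.7 at the later days, against 6.7, 3.4, 5 and 4.2 at the earlier days (1.46 ± 0.26, adjusted p = 0.000455), and it was not called with a constant of 64.

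Prm1, Prm2, Prm3 and Tnp2 lie side by side on chromosome 16, all on the minus strand, with 8168 bases between the outermost start sites. All 4 were called higher. Prm3, which encodes an acidic protein of the same cluster, was at 2370, 2409, 2807 and 2616, against 8.3, 10.6, 9.8 and 11.9 at days 18 and 20 (6.62 ± 0.14, adjusted p = 1.05e-15). The 130 bases before the start of each are shown because these neighbours rose together. Tnp1, on chromosome 1, stands beside them as a condensation gene outside the cluster. Iqcf3 and Lelp1 are shown as other genes among the 15 largest rises, and both hold a match marked below. The sequences are from RefSeq (GRCm38.p6), 5′ to 3′ on the strand of the gene. Capitals mark TGANNTCA, a cyclic AMP response element with any 2 bases in its middle, and the TATA box TATAAA, each on either strand. The cyclic AMP response element is the site of CREM, a transcription factor of spermatids.
Prm1, chr16:10796824-10796953, minus strand: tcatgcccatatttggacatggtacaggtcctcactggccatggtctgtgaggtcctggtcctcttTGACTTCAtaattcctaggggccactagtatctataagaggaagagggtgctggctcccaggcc
Prm2, chr16:10792106-10792235, minus strand: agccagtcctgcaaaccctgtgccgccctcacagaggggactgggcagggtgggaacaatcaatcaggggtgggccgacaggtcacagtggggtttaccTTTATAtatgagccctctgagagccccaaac
Prm3, chr16:10790915-10791044, minus strand: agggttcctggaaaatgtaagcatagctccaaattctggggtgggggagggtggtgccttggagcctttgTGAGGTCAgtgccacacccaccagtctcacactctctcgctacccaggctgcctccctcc
Tnp2, chr16:10788656-10788785, minus strand: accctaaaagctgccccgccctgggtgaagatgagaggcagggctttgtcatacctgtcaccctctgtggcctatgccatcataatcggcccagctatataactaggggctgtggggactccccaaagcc
Tnp1, chr1:73015900-73016029, minus strand: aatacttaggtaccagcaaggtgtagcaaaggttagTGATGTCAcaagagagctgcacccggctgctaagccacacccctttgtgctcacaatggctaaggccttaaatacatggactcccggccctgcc
Iqcf3, chr9:106561627-106561756, minus strand: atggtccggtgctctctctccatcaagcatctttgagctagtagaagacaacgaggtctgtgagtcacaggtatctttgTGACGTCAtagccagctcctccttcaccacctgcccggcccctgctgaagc
Lelp1, chr3:92142755-92142884, minus strand: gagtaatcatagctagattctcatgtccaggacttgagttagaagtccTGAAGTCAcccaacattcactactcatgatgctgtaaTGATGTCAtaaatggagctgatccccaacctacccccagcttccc
TGANNTCA stands once before Prm1, Prm3, Tnp1 and Iqcf3 and at 2 places before Lelp1, and these windows of Prm2 and Tnp2 do not hold it. The match of Iqcf3 is the strict element TGACGTCA. The loose form was chosen after the sequences were read. In windows of 250 bases before to 50 after the start, it was found in 177 of the 737 genes called higher that had a promoter in the table (24.0%), in 47 of the 436 called lower (10.8%) and in 12.3% of all 10769 tested genes. It was in 14.1% of all promoters of the table. Of the 15 largest rises 13 had a promoter in the table, and 6 of these held TGANNTCA and 1 the strict element. Iqcf3 and Lelp1 are thus not typical of the other large rises. The strict element was found in 3.93% of the genes called higher and in 3.18% of all tested genes. TATAAA was found in 10% against 9.69%, and the shorter form TGACG in 30.1% against 33.1%. Promoters of genes called higher had a median GC content of 55%, against 60% for all tested genes. Among promoters with a GC content under 50%, TGANNTCA was in 28.0% of those of genes called higher and in 16.5% of those of all tested genes, and at 50% or more in 15.6% and 9.19%. Genes can hold several promoters in the table, no test was made of these shares, and a match is only a match of letters.

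Of 19 genes of spermatid nuclear condensation, 12 were called higher and 0 lower, with a median of 4.39 (1 lower without the day 20 arrays named above). H1f7, a linker histone of the spermatid head, was at 1607, 1527, 1915 and 2047, against 4, 4.2, 4.3 and 6.7 at days 18 and 20 (6.42 ± 0.18). Hils1, a linker-histone-like protein of elongating spermatids, was at 1847, 1964, 1774 and 2135, against 6.4, 12.1, 7 and 9.4 (6.3 ± 0.15), on 1 of its 2 probe sets. The groups of both genes lay far apart. Hmgb4, a protein of the HMG box family, changed by 6.2 ± 0.21. Of 27 elongating spermatid markers, 23 were called higher and 0 lower (median 5.85), and of 26 round spermatid markers 20 were called higher and 0 lower (median 3.45). All lists were chosen with earlier results of these data known, so their shares are a description. For every list, the shares to set beside its counts are those of all genes, 6.84% higher and 3.97% lower. Lists also share members, such as Prm1 and Tnp2 in the condensation and elongating lists, and are not separate support.

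**Figure D2:**
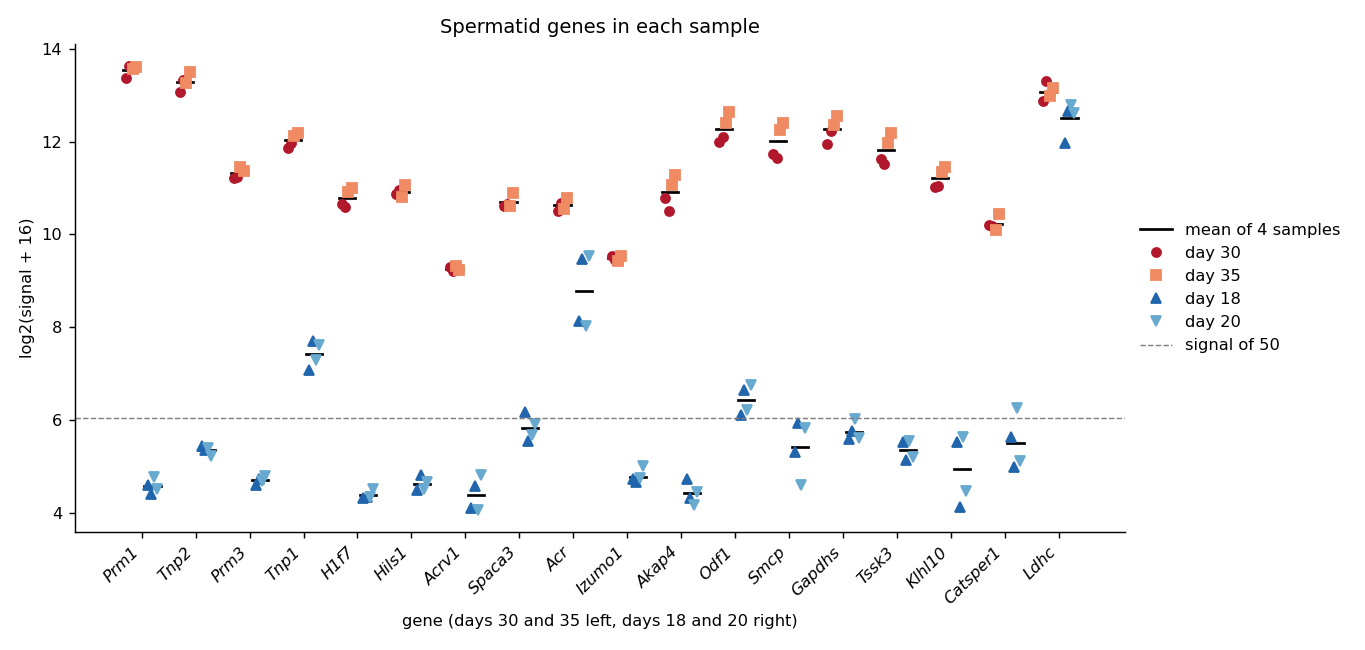
Level of 18 spermatid genes as log2(signal + 16) in each sample, days 30 (circles) and 35 (squares) left and days 18 (up triangles) and 20 (down triangles) right of each gene, with the mean of each 4 samples as a black line and a signal of 50 dashed. The earlier samples of all genes but Acr, Odf1, Spaca3, Tnp1, Catsper1 and Ldhc lie below the dashed line, and the groups of Ldhc are the closest.

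Each of the 15 largest rises had all 4 later samples above all 4 earlier ones, as the rule for naming them required. Iqcf3, with calmodulin-binding IQ motifs in its name, was at 7884, 6967, 10530 and 8732 at days 30 and 35, against 19.4, 10.2, 11.2 and 20.1 at days 18 and 20 (8.09 ± 0.21, adjusted p = 2.53e-14), on both of its probe sets. Lelp1, named as a late cornified envelope-like proline-rich protein, was at 2072, 1619, 3009 and 3376, against 2.3, 3.2, 5.9 and 4.2 (6.94 ± 0.24). Fam229a, a gene named only by its family, was at 10107, 10682, 10791 and 11559, against 76.6, 39.5, 64.5 and 61 (7.17 ± 0.44). Every later sample of these 3 genes was at 1619 or more and every earlier sample at 76.6 or less. Cypt12, a cysteine-rich testis gene, changed by 7.13 ± 0.45, Tex43 by 7.1 ± 0.3, and Efcab9, a calcium-binding partner of the sperm calcium channel, by 6.84 ± 0.38. Irgc1 changed by 6.72 ± 0.25, Fam170b by 6.64 ± 0.42 and Gtsf1l by 6.62 ± 0.23. The other genes among the 15 were Prm1, Tnp2, Prm3, Spz1, Actrt2 and Spata19.

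Genes of the acrosome changed by widely different amounts. Acrv1, an acrosomal matrix protein, was at 613.7, 573.9, 621.2 and 584.3 at days 30 and 35, against 1.3, 7.9, 0.8 and 12.3 at days 18 and 20 (4.87 ± 0.22, adjusted p = 5.92e-12). Eqtn, of the acrosomal membrane, was at 242, 188, 237.7 and 182.3, against 1.6, 10.4, 2.6 and 2.7 (3.5 ± 0.23). Both were at 12.3 or less in every earlier sample. Acr, the protease proacrosin, was at 1429, 1633, 1471 and 1738, against 266.9, 688.7, 245.7 and 721.5 (1.83 ± 0.33, adjusted p = 0.000447), and its groups did not overlap. Acr was called on 1 of its 2 probe sets. Spaca3, a lysozyme-like protein of the acrosome, changed by 4.87 ± 0.22, the serine protease gene Prss39 by 2.74 ± 0.34, and Spam1, the sperm hyaluronidase, by 2.85 ± 0.23. Zpbp, which encodes a zona pellucida binding protein, changed by 2.15 ± 0.37 on 1 of 2 probe sets. Of 24 acrosomal genes 9 were called higher and 1 lower, with a median of 0.67 between -1.79 and 4.87. The gene called lower was Tex101, a surface protein of germ cells that is lost from maturing sperm, at 1262, 1117, 1188 and 1324 at days 30 and 35, against 3324, 4362, 3136 and 7186 at days 18 and 20 (-1.79 ± 0.19, adjusted p = 1.46e-06). All its later samples were at 1324 or less and all its earlier samples at 3136 or more.

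Genes of the head skeleton and of proteins that meet the egg were also among the rises. Actrt2, an actin-related protein of the perinuclear theca, was at 2044, 2167, 2158 and 2934, against 4.8, 3, 4.5 and 5 at days 18 and 20 (6.83 ± 0.2, adjusted p = 2.53e-14). Capza3, a capping protein subunit of the sperm head, was at 1113, 1162, 1097 and 1094, against 2, 11.9, 1.7 and 8.6 (5.71 ± 0.25). Each earlier sample of both genes was at 11.9 or less. In this group of 9 genes, 6 were called higher and 0 lower (median 2.35), among them Actl7a (5.09 ± 0.27, on 1 of 2 probe sets), Actrt1 (3.4 ± 0.35) and Actl7b (2.35 ± 0.25), all actin-like. Izumo1, the sperm protein that binds the egg, was at 723.7, 680.8, 667.9 and 725.9, against 10.4, 9.3, 10.8 and 16.1 at days 18 and 20 (4.7 ± 0.31, adjusted p = 1.65e-09), on 1 of 2 probe sets. Of 16 genes of egg interaction and its chaperones 6 were called higher and 1 lower (median 0.81). Calr3, a calreticulin of the testis that serves in the folding of sperm surface proteins, changed by 3.26 ± 0.31, Adam4 by 2.62 ± 0.26, Adam3, needed for the passage into the oviduct, by 2.59 ± 0.44, and Pmis2 by 1.45 ± 0.34. The gene called lower, Ly6k, was at 3753, 3681, 3284 and 4113, against 6665, 8072, 6192 and 13060 (-1.13 ± 0.34, adjusted p = 0.0194). Its call was lost without any of 5 single samples (day 18 number 2, day 20 number 2, either day 30 sample or day 35 number 1) and without either or both of the arrays of each type named above, and its second probe set changed by 0.97.

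Of the flagellar lists, those of the accessory structures had higher medians than that of the axoneme. Akap4, the main anchoring protein of the fibrous sheath, was at 1757, 1446, 2138 and 2488, against 10.6, 4, 2 and 6 at days 18 and 20 (6.5 ± 0.2, adjusted p = 7.62e-14). Ropn1, which binds such anchoring proteins, was at 4858, 5470, 5032 and 6033, against 59.1, 25.8, 86.8 and 23.6 (6.48 ± 0.34). The day 18 and day 20 signals of Akap4 were all at 10.6 or less. Of 13 fibrous sheath genes 8 were called higher and 0 lower (median 1.34), with Prkar2a, a regulatory subunit of protein kinase A, at 2.49 ± 0.21 and Akap14 at 2.16 ± 0.24. With suffixed probe sets left out Prkar2a was represented by another probe set, which changed by -0.16 (adjusted p = 0.492). Odf1, of the outer dense fibres, was at 4079, 4352, 5383 and 6342, against 53, 84.1, 58.7 and 92.3 (5.85 ± 0.2, adjusted p = 1.99e-13). Smcp, of the mitochondrial capsule, was at 3393, 3190, 4821 and 5412, against 23.5, 45.1, 8.3 and 41.1 (6.59 ± 0.33). For both genes the day 35 samples were above the day 30 samples. Of 18 genes of the outer dense fibres, mitochondrial sheath and annulus 11 were called higher and 0 lower (median 1.92), including Spata19, a mitochondrial protein of sperm (6.81 ± 0.35), Oaz3, the antizyme of spermatids (6.12 ± 0.29), and Cby2 (5.2 ± 0.24).

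The axoneme list had 6 of 26 genes called higher, 0 lower and a median of 0.57. Tppp2, a tubulin polymerization protein of the testis, was at 529.4, 531.2, 849.2 and 609.3, against 36.5, 8.5, 23.1 and 6.9 at days 18 and 20 (4.27 ± 0.28). Tekt2 and Tekt4, tektins of the flagellar doublets, changed by 3.06 ± 0.24 and 2.4 ± 0.21, and Enkur and Ak8 by 1.29 ± 0.35 and 1.19 ± 0.37. The later samples of Ak8 overlapped the earlier ones, and its call was lost without any of 5 single samples, day 18 number 2, day 20 number 1, either day 30 sample or day 35 number 2, and that of Enkur without day 20 number 2. Of 22 genes of the manchette and head shaping 9 were called higher and 0 lower (median 0.66). Klhl10, a partner of cullin 3 in spermatids, was at 2049, 2110, 2578 and 2775, against 29.8, 1.4, 34 and 6.2 (6.27 ± 0.29, adjusted p = 7.26e-12). Sun5 and Sun3, nuclear envelope proteins of spermatids, changed by 4.98 ± 0.2 and 2.4 ± 0.34, Kif17, a kinesin that binds the CREM coactivator, by 4.33 ± 0.32, and Clip1, of microtubule ends, by 3.01 ± 0.26 on 1 of its 2 probe sets.

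Signalling, transport and energy genes rose in part. Tssk3, a spermatid serine kinase, was at 3134, 2897, 3999 and 4637, against 29.9, 19.2, 30.9 and 20.6 at days 18 and 20 (6.47 ± 0.19, adjusted p = 1.16e-13). Tssk6, another kinase of this family, was at 3607, 3591, 5185 and 6580, against 59.5, 61.7, 70.7 and 84.6 (5.77 ± 0.43). The later samples of both were at 2897 or more and the earlier ones at 84.6 or less. Of 24 spermatid kinases and phosphatases 8 were called higher and 0 lower (median 0.63; 1 lower without the day 20 arrays named above), with Dusp13 at 6.11 ± 0.19, Tssk2 at 5.39 ± 0.17 and Tssk1 at 3.84 ± 0.19. Dusp13 was called on 1 of its 2 probe sets. Catsper1, the pore subunit of the sperm calcium channel, was at 1166, 1138, 1085 and 1376, against 33.4, 15.9, 60.9 and 18.8 (4.73 ± 0.31, adjusted p = 3.66e-09). Among 18 sperm channels and transporters 8 were called higher and 0 lower (median 0.85), with Slc22a14 at 6.03 ± 0.29, the amino acid transporter Slc36a3 at 3.94 ± 0.2, the monocarboxylate transporter Slc16a7 at 3.81 ± 0.24 and Atp1a4, the sodium pump of sperm, at 2.89 ± 0.19.

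Of 3 germ cell enzymes of glycolysis and lactate metabolism, Gapdhs and Pgk2 were called higher and Ldhc was not. Gapdhs, the glycolytic dehydrogenase of sperm, was at 3944, 4748, 5263 and 6009, against 32.2, 38.3, 48.8 and 32.8 at days 18 and 20 (6.53 ± 0.23, adjusted p = 3.99e-13). Pgk2, the germ cell phosphoglycerate kinase, was at 1072, 942.4, 1394 and 1343, against 62.8, 180.4, 77.5 and 194.9 (3.17 ± 0.25, adjusted p = 2.4e-08). Ldhc, the lactate dehydrogenase of germ cells, was at 7466, 10075, 8068 and 9053, against 3996, 6409, 7064 and 6274 (0.57 ± 0.52, adjusted p = 0.458). The groups of none of these 3 genes overlapped. Of 21 germ cell energy genes 6 were called higher and 0 lower (median 0.39). Acsbg2, an acyl-CoA synthetase of the testis, changed by 4.77 ± 0.21 and Aldoart2, an aldolase, by 3.76 ± 0.16. The somatic counterparts were not called, Ldha at 0.39 ± 0.2 and Pgk1 at -0.15 ± 0.22.

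Among 26 genes of ubiquitin and protein turnover 8 were called higher and 0 lower (median 0.30). Rnf133, a ubiquitin ligase of spermatids, was at 2673, 2806, 2729 and 3019, against 25.4, 23.6, 32.7 and 23 at days 18 and 20 (6.07 ± 0.25, adjusted p = 5.9e-12). Psme4, the proteasome activator that acts on acetylated histones, was at 1041, 1084, 1155 and 1230, against 348.5, 519.2, 126.4 and 519.5 (1.71 ± 0.3). Asb9 changed by 2.8 ± 0.3 and Ube2j1 by 1.5 ± 0.26, on 1 of 2 probe sets each for Psme4 and Ube2j1. Of 21 genes of transcription in late meiosis and spermatids 6 were called higher and 0 lower (median 0.05). Spz1, a spermatogenic helix-loop-helix factor, was at 3555, 3736, 5244 and 4136, against 26.6, 6.3, 19 and 12.7 (7.05 ± 0.22, adjusted p = 6.37e-14), and Trim36 changed by 6.02 ± 0.31. Nr6a1, a germ cell nuclear receptor, changed by 1.55 ± 0.23 and Rfx2, a regulator of ciliary genes, by 1.21 ± 0.31. The call of Rfx2 was lost without day 18 number 1 or day 20 number 1. Crem itself was at 54.2, 49.6, 56.6 and 35.1, against 107.2, 85.6, 43.7 and 95.4 (-0.57 ± 0.23, adjusted p = 0.071), which was not called, on the brightest of 3 probe sets.

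Genes of germ granules and stored mRNA moved both ways. Of 25 such genes 4 were called higher and 4 lower (median 0.07). Papolb, the poly(A) polymerase of spermatids, was at 757.1, 691, 672.5 and 690.7, against 117.7, 200.1, 135.1 and 236.8 at days 18 and 20 (1.98 ± 0.21, adjusted p = 1.64e-06). Piwil2, a protein that binds small RNAs in the germ line, was at 503.5, 412.1, 306.8 and 406.5, against 925.5, 1096, 816.4 and 1448 (-1.35 ± 0.21, adjusted p = 0.000157). Mov10l1, a helicase that works with it, was at 1346, 1336, 1290 and 1430, against 3046, 3602, 3334 and 3843 (-1.34 ± 0.14, adjusted p = 2e-06). The groups did not overlap for these 3 genes. Rnf17, a tudor protein, and Prkra, of the RNA interference pathway, changed by -1.73 ± 0.46 and -1.62 ± 0.29. Ybx2 and Ybx3, which bind stored mRNA, changed by 1.28 ± 0.33 and 1.23 ± 0.32, and Mael by 1.05 ± 0.27. The count of 4 genes higher became 1, Papolb, without the day 18 or the day 20 array of each type named above. The calls of Ybx2 and Ybx3 were also lost without day 18 number 1 or day 20 number 1, that of Mael without day 18 number 2, day 20 number 2 or day 35 number 1, and that of Rnf17 without day 30 number 2.

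**Figure D3:**
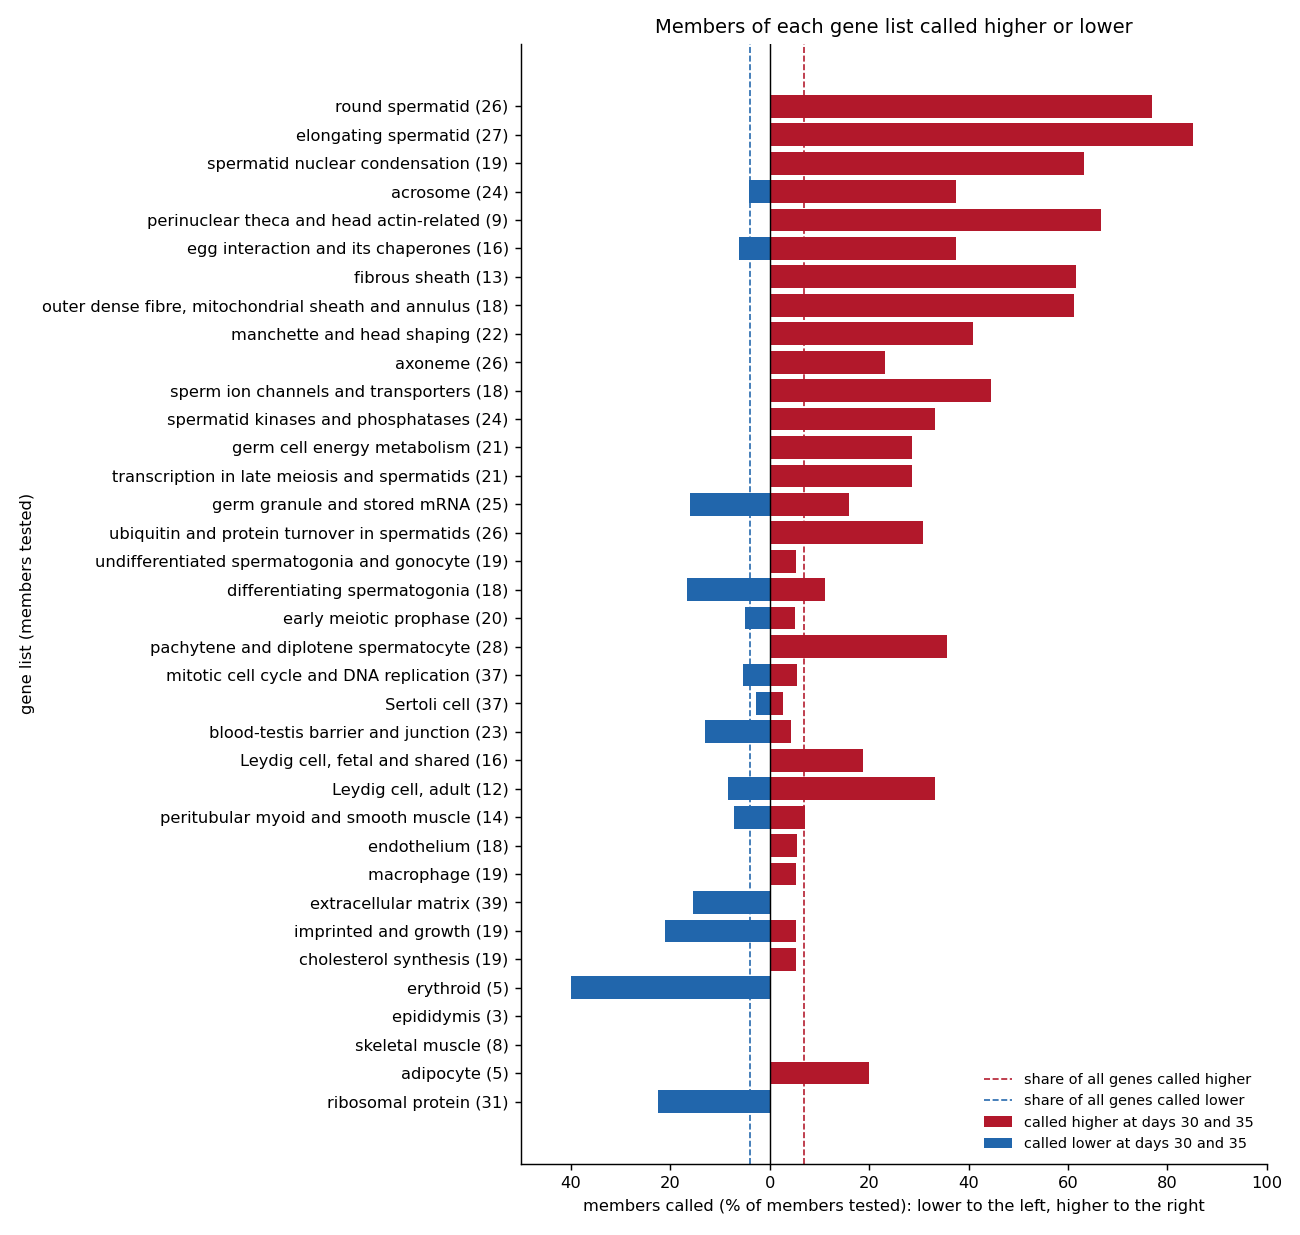
Percent of the tested members of each of 36 gene lists that were called higher (red, to the right) or lower (blue, to the left) at days 30 and 35, with the number tested in brackets. Dashed lines give the share of all genes, 6.84% higher and 3.97% lower. The elongating (85.2%) and round spermatid (76.9%) lists have the longest bars. The lists were chosen with earlier results of these data known, and some share members.

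Few differences were found within the later days. No gene was called between day 35 and day 30 by limma (0%), where 315 of 13472 had an unadjusted p under 0.05 (2.34%). Between day 30 and day 20, 704 genes were called higher and 308 lower (5.23% and 2.29%, 7.51% together), and between day 35 and day 18, 931 higher and 977 lower (6.91% and 7.25%, 14.2% together). Without the day 20 array of each type named above the day 30 and day 20 counts were 540 higher and 90 lower, and without the day 18 array the day 35 and day 18 counts were 613 higher and 216 lower. Without both arrays they were 574 and 113 for days 30 and 20, and 661 and 340 for days 35 and 18. Of the 922 genes called higher, both day 35 samples lay above both day 30 samples in 397 and below them in 57, which is 43.1% and 6.18%. Over all genes these shares were 18% and 18.6%. In the list of outer dense fibre, mitochondrial sheath and annulus genes 11 of 18 had both day 35 samples above both day 30 samples, and in the elongating spermatid list 16 of 27. In the round spermatid list there were 9 of 26. Oaz3, at 2480, 2481, 3704 and 4271 at days 30 and 35, shows this order, with both day 35 samples above both day 30 samples.

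Between the earlier days no gene was called either (0%), while 1564 of 13472 had an unadjusted p under 0.05 (11.6%). That count depended on single samples. It was 516 genes called without day 20 number 1, 404 without day 20 number 2, 31 without day 18 number 1 and 5 without day 18 number 2. In each of these fits the day left with 1 array per type has no spread of its own and is assumed to vary like the other days. The spread between the 4 samples of a group was wider at the earlier days. Its median SD on the log2 scale was 0.19 at days 30 and 35, against 0.43 at days 18 and 20 among the genes called higher, and 0.20 against 0.36 among all genes.

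Samples outside the comparison describe where the changes stand in the time course. Genes passed the filter through arrays of any day, day 56 included, and the called genes were chosen by their change. The shares of bright and dim genes below follow in part from this and are a description. At day 56, 879 of the 922 genes called higher had both samples at a signal of 50 or more, against 9930 of all 13472 genes. At day 14, 409 of the 922 had both samples under 50, against 1848 of all genes. Of the 535 genes called lower, 515 had both day 14 samples at 50 or more (96.3%), against 10466 of all genes (77.7%). At day 56, 108 of the 535 had both samples under 50 (20.2%), against 1961 of all genes (14.6%), and 342 had both at 50 or more (63.9%), against 9930 of all genes (73.7%). The median level of the elongating spermatid list was 5.58 at day 14, 5.81 at day 18, 6.00 at day 20, 11.29 at day 30, 11.65 at day 35 and 11.85 at day 56 on the log2 scale. That of the round spermatid list was 5.37, 5.63, 5.94, 10.38, 10.39 and 10.53 on the same days. The pachytene and diplotene list climbed earlier, with 8.19 at day 14, 8.90 at day 18, 9.29 at day 20, 9.75 at day 30, 9.70 at day 35 and 9.78 at day 56.

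**Figure D4:**
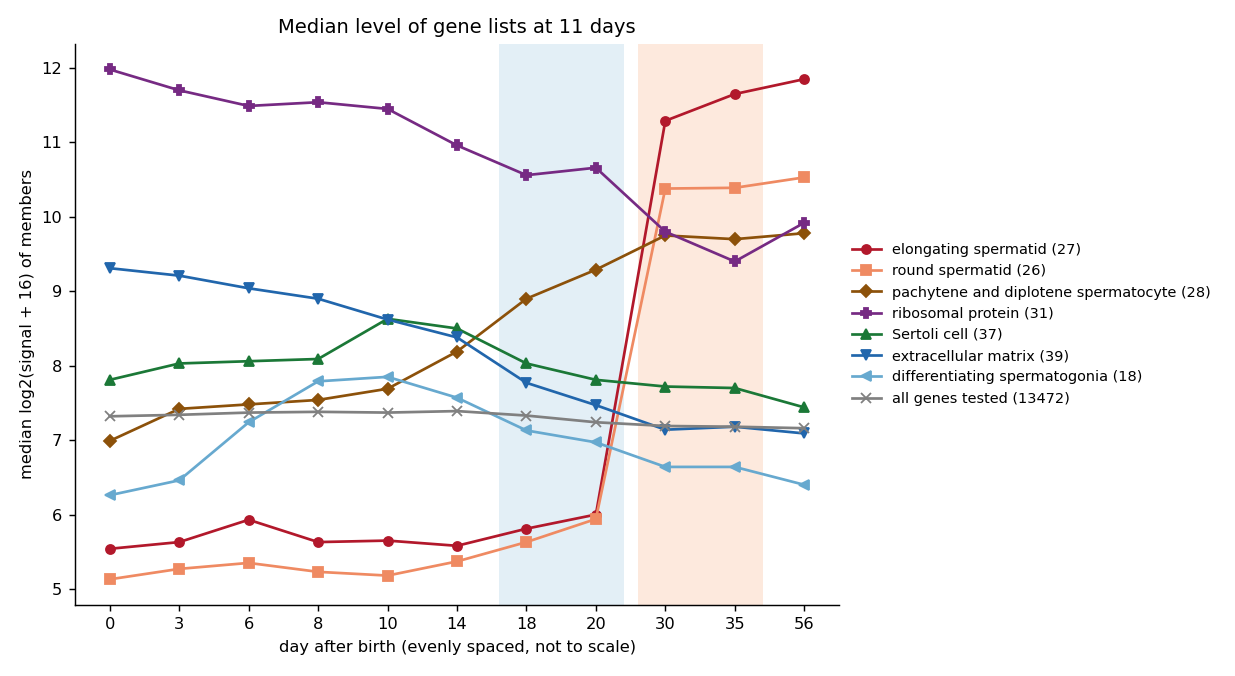
Median level of 7 gene lists and of all tested genes, as log2(signal + 16), each gene's mean of 2 samples per day, at 11 days after birth (evenly spaced). The blue band marks days 18 and 20 and the orange band days 30 and 35. The spermatid lists are at 6.00 or less up to day 20 and at 10.38 or more from day 30.

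Of 28 genes listed for pachytene and diplotene spermatocytes 10 were called higher (35.7%, against 6.84% of all genes) and 0 lower (against 3.97%), with a median of 0.36. The other 18 were not called, and the changes lay between -0.6 and 4.78. In whole tissue a rise of a listed gene does not show that spermatocytes held the RNA. Hspa1l, a heat shock protein of germ cells, was at 1503, 1607, 1652 and 1425, against 31, 67.9, 38 and 32.9 at days 18 and 20 (4.78 ± 0.17, adjusted p = 4.5e-13). Tcp11 was at 4044, 5027, 5056 and 5498, against 609.9, 1466, 1200 and 1751 (2.04 ± 0.21, adjusted p = 7.58e-07). Ccna1, the A-type cyclin of meiosis, was at 524.2, 453, 466.1 and 538.8, against 40, 264.3, 225.2 and 242.6 (1.53 ± 0.32, adjusted p = 0.00183), with day 18 number 1 far below the other earlier samples. Without that sample it was not called. Hspa2, the chaperone of pachytene cells, was at 6136, 6912, 6764 and 7222, against 8248, 5895, 7284 and 11284 (-0.24 ± 0.2, adjusted p = 0.428), with overlapping groups. The count of 10 became 6 without day 18 number 1, 5 without the day 18 array of each type named above and 4 without both of these arrays.

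Of 20 genes of early meiotic prophase 1 was called higher and 1 lower, 5% each, with a median of -0.32. These shares lie near those of all genes, 6.84% and 3.97%. Rec8, a meiotic cohesin, was at 1429, 1551, 1352 and 1505, against 617.5, 642.2, 725.5 and 705.2 at days 18 and 20 (1.1 ± 0.14, adjusted p = 2.41e-05). Tex12, of the synaptonemal complex, was at 661.4, 548.2, 473.5 and 495.7, against 1202, 1971, 1155 and 671.7 (-1.09 ± 0.19, adjusted p = 0.000377). Its call was lost without day 18 number 2 or day 20 number 1. The count of 1 higher was 2 without either or both of the arrays of each type named above. The count of 1 lower was 0 without the day 18 array, 4 without the day 20 array, 2 without both, and 2 without day 20 number 1 or day 20 number 2. Without day 20 it was 6. Sycp1 and Sycp3, of the same complex, were not called (-0.6 ± 0.38, adjusted p = 0.256 and -0.37 ± 0.42, adjusted p = 0.557). Among 18 genes of differentiating spermatogonia 2 were called higher and 3 lower (11.1% and 16.7%, against 6.84% and 3.97% of all genes). The median was -0.75, and 10 of the 18 had all later samples below all earlier ones (17.6% of all genes). Stra8, the retinoic acid target that opens meiosis, was at 64.6, 45.3, 39.5 and 46.3, against 204.8, 122.5, 101.5 and 68 (-1.04 ± 0.19, adjusted p = 0.000595), Rhox13, an X-linked homeobox gene, changed by -1.19 ± 0.22 and Dnmt3a, a DNA methyltransferase, by -1.18 ± 0.18. Dmrtb1, a switch between mitosis and meiosis, was called higher (1.39 ± 0.31), and so was Fthl17a, one of several similar ferritin genes of the X chromosome (1.09 ± 0.21). Dnmt3a was called on 1 of its 3 probe sets and Dmrtb1 on 1 of 2. Of the genes called in this list, Dmrtb1 lost its call without day 18 number 1, Fthl17a without day 20 number 1 or day 35 number 2, and Stra8 without day 18 number 1, day 20 number 1, day 30 number 2 or day 35 number 1. The count of 2 higher was 1 without the day 18 array of each type named above or both arrays. The count of 3 lower was 0 without both arrays, 7 without day 18 number 2, and 5 without day 20 number 1 or day 35 number 2. With a constant of 1 it was 8. Kit, the stem cell factor receptor, was at 48.8, 50.5, 80.8 and 49.8, against 109.7, 56.6, 74.1 and 64.8, and was not called (-0.32 ± 0.23, adjusted p = 0.343). Of 19 genes of undifferentiated spermatogonia 1 was called higher (5.26%, against 6.84% of all genes) and 0 lower (against 3.97%), with a median of -0.37. It was Gpx3, a secreted peroxidase also made by other cells (1.08 ± 0.2), on 1 of 2 probe sets. Without day 35 number 1, 3 genes of this list were called lower, and 1 was called lower without any other single sample but day 35 number 2, and without either or both of the arrays named above.

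No gene called lower with separate groups fell by more than 2.33 on the log2 scale. This was Septin11, a cytoskeletal GTPase, at 28.1, 50.5, 41.1 and 5.7 at days 30 and 35, against 147.3, 375.9, 117.8 and 253.5 at days 18 and 20 (-2.33 ± 0.31, adjusted p = 1.88e-05). Rasl12, a Ras-like protein, was at 59, 43.8, 22.1 and 29.3, against 212.7, 339.1, 148.4 and 271.8 (-2.24 ± 0.22, adjusted p = 5.2e-07). Pold1, the catalytic subunit of DNA polymerase delta, was at 36.1, 56.8, 12.9 and 34.5, against 119.1, 215, 132.8 and 335.3 (-2.05 ± 0.31, adjusted p = 0.0001). The groups did not overlap for these 3 genes, and no later sample was above 59. With suffixed probe sets left out, Pold1 was not called. H2-K2, one of several similar class I histocompatibility genes, changed by -2.08 ± 0.35, Kctd14 by -2.02 ± 0.23, Jpt2 by -2.06 ± 0.27, the deubiquitinase gene Usp46 by -1.99 ± 0.34, the tight junction gene Cldn12 by -1.96 ± 0.24 and the carbonic anhydrase gene Car7 by -1.95 ± 0.27. The other genes among the 15 largest falls were Hbb-b2, Ovca2, Cdc42ep5, Uck1, Dctpp1 and Cuta, between -2.32 and -1.87. Probe sets of a gene often disagreed here. Of the 7 of these 15 genes with more than 1 probe set, 0 had a second probe set called lower, against 4 of 6 among the 15 largest rises. Over all genes with more than 1 probe set, at least 2 were called in 31 of 272 genes called lower (11.4%) and in 120 of 322 called higher (37.3%).

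**Figure D5:**
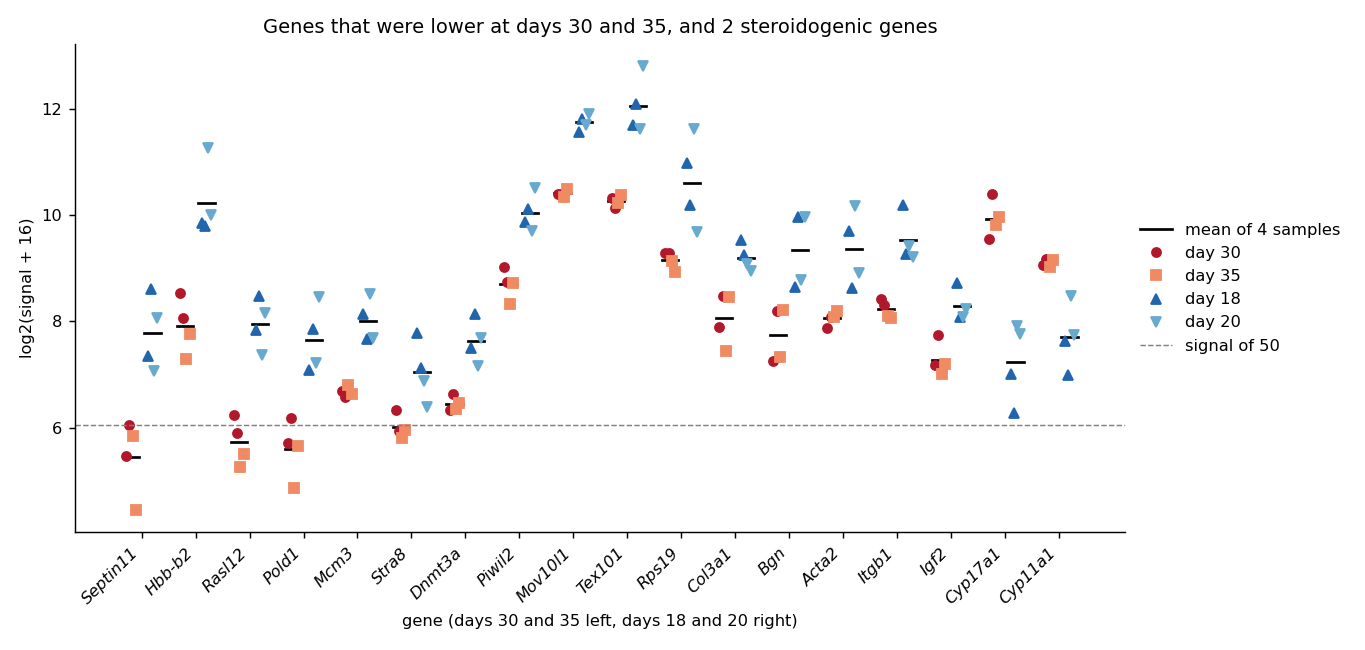
Level of 16 genes called lower at days 30 and 35 and of Cyp17a1 and Cyp11a1, which were called higher, as log2(signal + 16) in each sample. Days 30 (circles) and 35 (squares) are left and days 18 (up triangles) and 20 (down triangles) right of each gene, with the mean of each 4 samples as a black line and a signal of 50 dashed. The 2 groups of each gene do not overlap.

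Ribosomal protein genes, which have many similar pseudogenes that probes may also bind, were among the falls. Of 31 ribosomal protein genes 7 were called lower (22.6%, against 3.97% of all genes) and 0 higher, with a median of -0.67 (all genes, -0.16). Rps19 was at 608.6, 610.3, 548.1 and 470.7, against 2007, 1150, 3138 and 810.2 at days 18 and 20 (-1.46 ± 0.31, adjusted p = 0.00216). Rpl10a was at 579.6, 562.7, 470.2 and 534.6, against 1582, 993.3, 2104 and 1097 (-1.34 ± 0.22, adjusted p = 0.000179), on both of its probe sets. In both genes, day 20 number 1 was the highest sample. Rps4x changed by -1.32 ± 0.22, Rpl13a by -1.32 ± 0.26 and the dim gene Rpl22 by -1.41 ± 0.23. With the mean of all probe sets, Rps4x and Rpl22 were not called. The count of 7 was 1 without both arrays of each type named above and 11 without day 20 number 2, and Rps19 was not called without day 20 number 1. Of 37 genes of the mitotic cell cycle and DNA replication 2 were called lower and 2 higher, 5.41% each (median -0.36). These shares lie near those of all genes, 3.97% lower and 6.84% higher. Mcm3, of the replication helicase, was at 87.2, 79.3, 95.4 and 82.6, against 266.9, 187.2, 352.3 and 190.7 (-1.34 ± 0.18, adjusted p = 2.4e-05), and Ung, a uracil DNA glycosylase, changed by -1.28 ± 0.21. With suffixed probe sets left out, neither was called. Called higher were Ccnd3, a D-type cyclin (1.68 ± 0.22, on 1 of 3 probe sets), and Cdkn1c, an inhibitor of cyclin-dependent kinases, at 188.4, 211.2, 230.3 and 174.6, against 43.7, 27.9, 59.4 and 22.6 (2.04 ± 0.22, adjusted p = 1.62e-06). Without day 18 number 2, 4 genes of this list were called lower, and without both arrays named above 1. Mki67, a marker of dividing cells, was not called (-0.49 ± 0.22, adjusted p = 0.116).

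Of 37 markers of Sertoli cells, the somatic cells of the tubule, 1 was called higher, Krt8, and 1 lower, Gata1, which is 2.7% each, against 6.84% and 3.97% of all genes. The median was -0.24, and 12 of the 37 had all later samples below all earlier ones, against 17.6% of all genes. Gata1, a transcription factor, was at 67.9, 88.5, 55.6 and 45.6, against 168.8, 123.1, 207.4 and 113.7 at days 18 and 20 (-1.07 ± 0.21, adjusted p = 0.00115). Its call was lost without day 18 number 1, day 20 number 1 or day 30 number 1, and the number of markers called lower was 3 without day 18 number 1, 4 without day 18 number 2, 4 without day 20 number 1, 3 without day 35 number 2 and 2 without day 20 number 2 or day 30 number 1. It was 3 without the day 20 array of each type named above, 0 without the day 18 array or both, and 6 without day 20. Clu was at 1423, 1600, 1544 and 1874, against 2757, 1918, 1162 and 2048 (-0.23 ± 0.17, adjusted p = 0.353), and Sox9 at 414.4, 520.7, 432.1 and 468.7, against 428.6, 624.8, 316.5 and 506.7 (0 ± 0.18, adjusted p = 0.989). The groups overlapped for Clu and Sox9. Inha, the inhibin alpha chain, changed by -0.65 ± 0.15 and Cldn11, the tight junction claudin of these cells, by -0.68 ± 0.17, both short of the 2-fold threshold with all later samples below the earlier ones. Of 23 genes of the blood-testis barrier and junctions 3 were called lower (13.0%, against 3.97% of all genes) and 1 higher (4.35%, against 6.84%), with a median of -0.51. Itgb1, an integrin chain, was at 326.3, 303.1, 259.5 and 252.2, against 1161, 605.8, 669.6 and 577.1 (-1.3 ± 0.16, adjusted p = 6.58e-06), F11r, a junction adhesion molecule, changed by -1.14 ± 0.17 and Pard6b, a polarity protein, by -1.08 ± 0.15. With the mean of all probe sets or with suffixed probe sets left out, Itgb1 was not called. Nectin3, the nectin of spermatids that binds Sertoli cells, was the gene called higher (1.47 ± 0.28). F11r lost its call without day 18 number 1 and Pard6b without day 18 number 2, the count of 3 was 5 without day 18 number 2 and 1 without the day 18 array of each type named above or both arrays, and Nectin3 was not called without both arrays.

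Some extracellular matrix genes fell. Of 39 such genes 6 were called lower (15.4%, against 3.97% of all genes) and 0 higher (median -0.50). Bgn, a proteoglycan, was at 135.8, 276.9, 145 and 283, against 387.5, 989.2, 423.3 and 993.5 at days 18 and 20 (-1.6 ± 0.37, adjusted p = 0.00392). Col3a1, a fibrillar collagen, was at 222.5, 343.3, 157.2 and 335.1, against 730.1, 591, 523.3 and 477.5 (-1.13 ± 0.25, adjusted p = 0.00247). The groups of both genes lay apart, and Col3a1 lost its call without day 30 number 1 or day 35 number 1. Col5a1 changed by -1.37 ± 0.23, Mfap5 by -1.12 ± 0.22 and Col1a2 by -1.06 ± 0.18, while Col1a1 was at 433.2, 746.7, 331.7 and 759.2, against 588.8, 831.1, 245.1 and 740.7 (-0.03 ± 0.49, adjusted p = 0.971). Bgn and Col3a1 were called on 1 of 3 probe sets each, Col5a1 on 1 of 4 and Col1a2 on 1 of 2. The other probe set of Col1a2 changed by 0.42. With suffixed probe sets left out, Bgn and Col5a1 were not called. The calls of Mfap5 and Col1a2 were each lost without 2 single samples, day 18 number 2 or day 30 number 2 for Mfap5 and day 18 number 1 or day 35 number 1 for Col1a2. Without both arrays of each type named above, 1 gene of the list was called lower. Acta2, the smooth muscle actin of peritubular cells, was at 219.9, 254.9, 254.6 and 278.8, against 817, 381, 1147 and 466.6 (-1.3 ± 0.26, adjusted p = 0.00116), and it was not called without day 20 number 1, the day 20 array of each type named above or both arrays, while its second probe set changed by -0.09. In the peritubular and smooth muscle list it was the 1 gene lower of 14, and Actg2, another smooth muscle actin, was the 1 gene higher, at 1056, 1177, 1082 and 1390, against 169.7, 213.4, 249.2 and 167.8 (2.47 ± 0.17, adjusted p = 3.41e-09). The median of that list was -0.45. Its shares of 7.14% each way lie near those of all genes, 6.84% higher and 3.97% lower.

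Imprinted and growth genes had 4 of 19 called lower (21.1%, against 3.97% of all genes) and 1 higher (5.26%, against 6.84%), with a median of -0.49. Ndn, a growth suppressor of the MAGE family, was at 60.8, 37.5, 33.4 and 38.7, against 167.6, 117.9, 165.3 and 105.1 at days 18 and 20 (-1.4 ± 0.19, adjusted p = 3.48e-05), on both of its probe sets. Igf2, the fetal growth factor, was at 128.2, 198.7, 112.1 and 130.1, against 406.3, 254.9, 255.6 and 287.2 (-1.01 ± 0.22, adjusted p = 0.00273). Both were lower in all 4 later samples than in any earlier sample. Plagl1 changed by -1.17 ± 0.16 and Peg3 by -1.11 ± 0.25, and the gene called higher was Cdkn1c, given above. The count of 4 was 2 without day 30 number 1 or without the day 18 array of each type named above. Igf2 lost its call without day 18 number 1, day 20 number 2, day 30 number 1 or day 35 number 1, and Peg3 without day 18 number 1, day 20 number 2, day 30 number 1 or day 35 number 2.

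Some steroidogenic genes of Leydig cells, which make testosterone between the tubules, were among the rises. Cyp17a1, which encodes the lyase on the way to androgens, was at 736.1, 1344, 882.5 and 982.7, against 113.4, 61.2, 224.2 and 200.9 at days 18 and 20 (2.7 ± 0.22, adjusted p = 2.78e-08). Cyp11a1, the side-chain cleavage enzyme, was at 522.8, 562, 504.3 and 556.2, against 181.1, 111.6, 340.7 and 199.4 (1.4 ± 0.21, adjusted p = 9.88e-05), and without day 18 it was not called. Hsd17b3, the enzyme of the last step to testosterone, was at 100.5, 118.7, 84.4 and 69.5, against 26.3, 36.6, 24.3 and 24.9 (1.3 ± 0.23, adjusted p = 0.000446). None of these 3 genes overlapped between the groups. Of 16 genes of fetal and shared Leydig cells 3 were called higher (18.8%, against 6.84% of all genes) and 0 lower (median 0.04). The third was Gramd1b (1.09 ± 0.27), which lost its call without day 18 number 2, day 20 number 2 or day 30 number 1. Other members of this list went down. Hsd3b1 changed by -0.76 ± 0.27 (adjusted p = 0.0413), short of the 2-fold threshold. Of the 16 genes, 4 had all later samples above all earlier ones and 5 had all below, against 11.4% and 17.6% of all genes. Of 12 adult Leydig genes 4 were called higher (33.3%) and 1 lower (8.33%, against 3.97% of all genes), with a median of 0.23. Klk1b21, one of a family of similar kallikrein genes, changed by 2.59 ± 0.4, the epoxide hydrolase gene Ephx1 by 1.91 ± 0.4 and Sult1e1, the estrogen sulfotransferase, by 1.33 ± 0.32, and Gsta4 was called lower (-1.31 ± 0.3), though not without day 18 number 1, the day 18 array of each type named above or both arrays. Star, the cholesterol carrier of steroidogenesis, was not called (0.7 ± 0.37, adjusted p = 0.174), nor was Insl3 (0.31 ± 0.23, adjusted p = 0.34), nor Hsd3b6, which missed the 2-fold threshold (0.97 ± 0.24, adjusted p = 0.0068). Of 19 cholesterol synthesis genes 1 was called higher (5.26%, against 6.84% of all genes). It was Fdft1, the squalene synthase, at 1261, 1223, 1126 and 1192, against 220.5, 426.4, 458.5 and 638.3 (1.52 ± 0.19, adjusted p = 7.84e-06). A second gene of this list was called without day 18 number 2, day 20 number 2, day 30 number 1, day 35 number 1 or both arrays named above.

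Genes on the X chromosome are silenced in pachytene spermatocytes and stay largely repressed in spermatids. Of 413 X-linked genes tested 26 were called higher and 33 lower, which is 6.30% and 7.99%, against 6.85% and 3.85% of 13000 autosomal genes. The median was -0.32 on the X chromosome, against -0.16 on the autosomes. Akap4 and Actrt1, described above, were among the X-linked rises, with later signals of 1446 to 2488 and of 229.3 to 339.8.

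Markers of cells that do not belong to the seminiferous tubule were read as summed signals. For 5 erythroid genes the sum was 991 to 1410 at days 30 and 35, against 2843 to 7818 at days 18 and 20, and 2 were called lower. Hbb-b2, a beta globin with near-identical copies, was at 353.7, 253.4, 140.5 and 200, against 916.5, 879, 2447 and 1016 (-2.32 ± 0.29, adjusted p = 8.59e-06), and Hba-a1, an alpha globin, at 727.3, 596, 518.7 and 756, against 1635, 1688, 4999 and 2142 (-1.84 ± 0.26, adjusted p = 4.76e-05). Day 20 number 1 was the highest sample of both, and the part of red cells in the other falls was not tested. Epididymal genes (0 of 3 called, 1 higher without both arrays named above) summed to 134.6 to 201.1 at the later days, against 63.2 to 164 at the earlier days, and skeletal muscle genes (0 of 8) to 953 to 1304, against 1330 to 1736. Adipocyte genes summed to 360.5 to 507.7, against 277.9 to 417.6, with 1 of 5 called higher, Adipoq (1.58 ± 0.21). Endothelial genes summed to 1302 to 1546, against 1410 to 1774, with 1 of 18 called higher (5.56%, against 6.84% of all genes). It was Vwf (1.03 ± 0.2), which lost its call without day 18 number 2, day 20 number 2, day 30 number 2 or day 35 number 2. Macrophage genes summed to 2650 to 2800, against 2018 to 3174. In that list 1 of 19 genes was called higher (5.26%, against 6.84% of all genes). It was Aif1, a calcium-binding protein listed as a macrophage marker, at 868.3, 829.6, 887.6 and 858.9, against 4.4, 8.8, 4.3 and 5.5 at days 18 and 20 (5.34 ± 0.14, adjusted p = 2.22e-14). Aif1 was at 4.2 and 7.2 at day 14 and at 1563 and 1423 at day 56. Which cells held its RNA was not tested. Computed after the data were seen, the sum of the other 18 macrophage genes was 1762 to 1941 at days 30 and 35, against 2009 to 3169 at days 18 and 20, so without Aif1 the groups did not overlap and all later sums were the lower ones. The median of the macrophage list was -0.10. No member of these 6 lists was at 0 in any of the 8 samples.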

How the data were processed

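Total testis RNA was measured on 3 array types. Per the labels, the authors scaled each array's signal intensities to a mean of 125. The deposited values are linear intensities, 1 per probe set and array, and their trimmed means (2% at each end) lie near 125. The software and background correction are not given in the sources used here, detection calls were not used here, and precision is limited by how many arrays there are.

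Probe sets were named with the platforms' annotation tables. Of 36899, 29131 name 1 gene, 724 several, 6846 none and 198 are controls, and only those of 1 gene were used for gene counts. The 3 array types were fitted separately with limma 3.58.1 (R 4.3.3) on log2(signal + 16) as 11 day means, with eBayes and a variance trend. The contrast was the mean of days 30 and 35 minus that of days 18 and 20, two-sided, with Benjamini-Hochberg adjustment over all 13472 genes. The fit was tested on simulated data. A gene passed the filter through any of the 22 arrays.

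Named genes are the 15 largest rises and 15 largest falls without overlap between the groups and without clone names, up to 5 called genes per direction of each of 36 lists (or the brightest) and 50 textbook genes (46 tested). The members and lists were chosen with earlier results of these data known. Sample numbers were not used as pairs in the main fit, and the labels do not say what a number marks across days. The correlation of number 1 minus number 2 between days lay between -0.2 and 0.22. Results were recomputed under 24 other settings, and under 3 more, on arrays that stand apart, chosen after seeing the data. Promoters are from RefSeq (GRCm38.p6).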

Additional observations from a re-analysis of the deposited data

Results flagged for a closer look

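Among the 15 largest rises, the 15 largest falls and the textbook genes, 74 genes were tested for a sample far from the other 3 of its group by Dixon's ratio on the log2 scale. In 148 such groups 7 samples stood out, and chance flags about 1 in 20 groups. Hbb-b2 had a signal of 2447 in day 20 number 1, against 916.5, 879 and 1016 in the other earlier samples. Ccna1 had 40.0 in day 18 number 1, against 264.3, 225.2 and 242.6. The other 5 are among the later samples. Actrt2 had 2934 in day 35 number 2, against 2044, 2167 and 2158 in the other later samples. Tex43 had 4884 in day 30 number 1, against 4226, 4227 and 4314, and Sycp3 had 36.2 in day 30 number 1, against 16.2, 17.2 and 16.1. Kit had 80.8 in day 35 number 1, against 48.8, 50.5 and 49.8, and Cuta had 34.3 in day 35 number 1, against 46.6, 46.5 and 47.4.

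Probe sets without a gene name stayed out of the gene counts. Of 4209 such probe sets that passed the filter, 81 were called higher at days 30 and 35 (1.92%) and 66 lower (1.57%).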

How the results depend on the processing

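Over 27 alternatives the count of genes called higher at days 30 and 35 stayed within 1.5 times of 922, and the count called lower did not stay so near 535. It was 839 with a constant of 1, 181 with a constant of 64 (898 called in both directions), 324 without the day 18 array of each type nearest to day 14, 321 without this and the day 20 array that stands apart, and 962 without day 20. A larger constant shrinks the changes of dim genes by construction. The other causes were not tested. Leaving out 1 sample at a time gave 872 to 979 genes higher and 523 to 668 lower. The share of higher among all called genes was 63.3%, against 53.6% with a constant of 1, 79.8% with 64, 50.3% without day 20 and 71.6% when scaled to the median. Of 150 named genes that were called, 51 were counted as losing their call under at least 1 of the 27 alternatives. The other 99 were 81 of 102 higher and 18 of 48 lower. These 99 include Prkar2a, which was not called with suffixed probe sets left out. They also include genes, such as Prm1, that only 26 of the alternatives tested. The 1 change of sign of a called gene was that of Prkar2a, at -0.16 with suffixed probe sets left out. Extracellular matrix genes called lower numbered 2 with a constant of 64 or the mean of all probe sets and 3 with quantile normalization, without suffixed probe sets or without day 18, and imprinted genes numbered 0 with a constant of 64. List counts of 0 to 2 moved by up to 5 genes. Between day 20 and day 18, 1 gene was called (higher) without the day 18 arrays or both arrays, and leaving out 1 sample gave 5 to 516 genes (3 to 118 higher, 2 to 398 lower). Between day 35 and day 30, 1 gene was called (lower) without both arrays. Between day 30 and day 20 the count was 630 without the day 20 arrays and 634 to 1307 with 1 sample left out. Its lower part was 152 with a constant of 64, 97 with the 4 days only, 90 without the day 20 arrays, 113 without both arrays and 114 to 489 with 1 sample left out. Between day 35 and day 18 the count was 1254 with a constant of 64, 829 without the day 18 arrays (613 higher, 216 lower), 1001 without both arrays (340 lower) and 1182 to 1776 with 1 sample left out. Its lower part was 445 with a constant of 64, 587 when scaled to the median, 541 with the 4 days only and 492 to 850 with 1 sample left out. Where 1 sample or array is left out, its day keeps 1 array per type, which is assumed to vary like the other days, and since the arrays that stand apart bear number 1 on type A and number 2 on types B and C, a number may not mark 1 RNA on all 3 types. With the sample number as a replicate block 930 genes were called higher and 546 lower. The labels do not say if a number marks a shared litter or batch across days, and this was not tested.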
